A study of Homo sapiens with 12 samples.

Results

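Urokinase (PLAU), tissue plasminogen activator (PLAT), the urokinase receptor (PLAUR) and the serpins SERPINE2 and SERPINB2 are the 5 genes described here, out of 29972 gene rows in each of 2 deposited result tables. They were taken by name as genes of the plasminogen activator system, with earlier results of these data known, and all 5 are in both tables. The study measured mRNA in 2 triple-negative breast cancer lines after siRNA against PHF19, a Polycomb-like protein that joins the histone methyltransferase complex PRC2 and binds chromatin carrying methylated H3K36. Its title ties PHF19 to the motility of these cells. The lines were MDA-MB-436 and BoM-1833, the latter a bone-tropic derivative of the MDA-MB-231 line.

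Each line had 3 libraries after a non-targeting siRNA pool (siNT, ON-TARGETplus from Dharmacon) and 3 after PHF19 siRNA (siPHF19), which makes 4 groups and 12 libraries. All 12 samples were transfected with RNAiMAX at 5 nM total siRNA, grown in DMEM with serum and taken at 72 h. The labels list 2 Silencer Select siRNAs against PHF19 and say that mixtures held equal parts, but do not say for each library whether 1 or both were used. Neither line carries any other labelled alteration. The labels do not say that the 3 libraries of a group came from separate cultures, so the p-values below measure the spread between these libraries, which may be technical.

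PLAU and PLAT encode the serine proteases that cleave plasminogen to plasmin, the protease that dissolves fibrin and degrades matrix proteins. Urokinase works mainly at the cell surface, held there by the lipid-anchored receptor PLAUR, while tissue plasminogen activator works mainly on fibrin. Serpins trap the activators in covalent complexes: SERPINE2 (protease nexin-1) inhibits urokinase, plasmin and thrombin, and SERPINB2 inhibits urokinase and tissue plasminogen activator. High urokinase and receptor levels have long been followed in breast cancer as markers of invasive disease. Other inhibitors of the activators are not described here.

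Libraries held 13.7 to 24 M reads in genes, and each of the 5 genes except SERPINB2 rested on at least 528 reads in every library. PHF19 itself fell to 9.75% of the siNT level in MDA-MB-436 cells and to 10.9% in BoM-1833 cells (log2 fold change -3.36, SE 0.11, and -3.19, SE 0.10, in the authors' deposited table; DESeq2 adjusted p 2.12e-211 and 1.53e-218). Of 5 mesenchymal markers, both lines carried VIM, CD44, AXL and CAV1 at 50.8 RPKM (reads scaled to exon length and to the reads of the library) or more, while SPARC was at 3.68 to 13.2 in MDA-MB-436 cells and at 0.0983 to 0.537 in BoM-1833 cells. Both had at most 4 reads of ESR1 and 2 of PGR in any library, and held ERBB2 at 8.6 to 12.3 RPKM. Of 6 luminal or epithelial markers, CDH1 and GRHL2 were at most 0.336 RPKM in both lines and EPCAM was at 2.13 to 4.07. KRT19 (228 to 267 against at most 0.041) and GATA3 (2.49 to 3.16 against at most 0.0757) were higher in BoM-1833 libraries, and FOXA1 (0.604 to 1.12 against 1.67 to 2.75) in MDA-MB-436 libraries. Summed over 3 leukocyte markers the level was at most 0.208 RPKM, with CD3E at 0 in every library. Over 4 fibroblast markers it was 0.584 to 0.73 (siNT) and 0.936 to 1.04 (siPHF19) in MDA-MB-436 cells and 2.55 to 2.91 and 4.22 to 4.39 in BoM-1833 cells, nearly all of it COL1A1, with DCN at 0 throughout. Over 3 endothelial markers it was 0.144 to 0.293 in MDA-MB-436 cells and 2.47 to 3.58 in BoM-1833 cells, mostly PECAM1. The siNT libraries of a line differed in the balance of long and short transcripts: the median log2 deviation of genes over 6000 bp minus that of genes under 2000 bp was lowest in siNT replicate 1 of both lines (-0.283 and -0.207) and reached 0.141 and 0.169 in siNT replicate 3, with the siPHF19 libraries between -0.092 and 0.146. The part of these differences in the results below was not tested beyond a fit with an exon length offset.

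After PHF19 siRNA, 5 of the 5 genes were lower in MDA-MB-436 cells and 4 of 5 in BoM-1833 cells, at a DESeq2 adjusted p under 0.05. In the whole tables, 22.1% of 14243 tested genes were called in MDA-MB-436 cells (11.5% lower and 10.5% higher), and 10.9% of 12906 in BoM-1833 cells (5.72% lower and 5.21% higher). PLAU, PLAT, PLAUR and SERPINB2 were lower in both lines, against 3.12% of the 12290 genes tested in both. The exception was SERPINE2, which fell in MDA-MB-436 cells and was not called in BoM-1833 cells. Where they fell, the 2 activators were left at 78.9% to 84.2% of the control, the receptor at 66.0% to 67.9%, SERPINE2 at 44.0% and SERPINB2 at 36% to 36.9%. These are bulk cultures, in which fewer cells of a kind and less RNA per cell cannot be told apart. Loss of PHF19 and other effects of the siRNAs cannot be told apart either. The letters AAACTG were in the annotated 3′ untranslated region of 70.1% of 361 genes lower in both lines. Of 7764 genes called in neither, 42.2% held them. PLAU has 1 such site and SERPINE2 has 2, while PLAT, PLAUR and SERPINB2 have 0. These letters were chosen with earlier results of these data known, so the shares only describe the same data again. The lengths of the untranslated regions were not matched, and the labels do not give the siRNA sequences. Whether these letters bear on the falls was not tested.

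**Figure D1:**
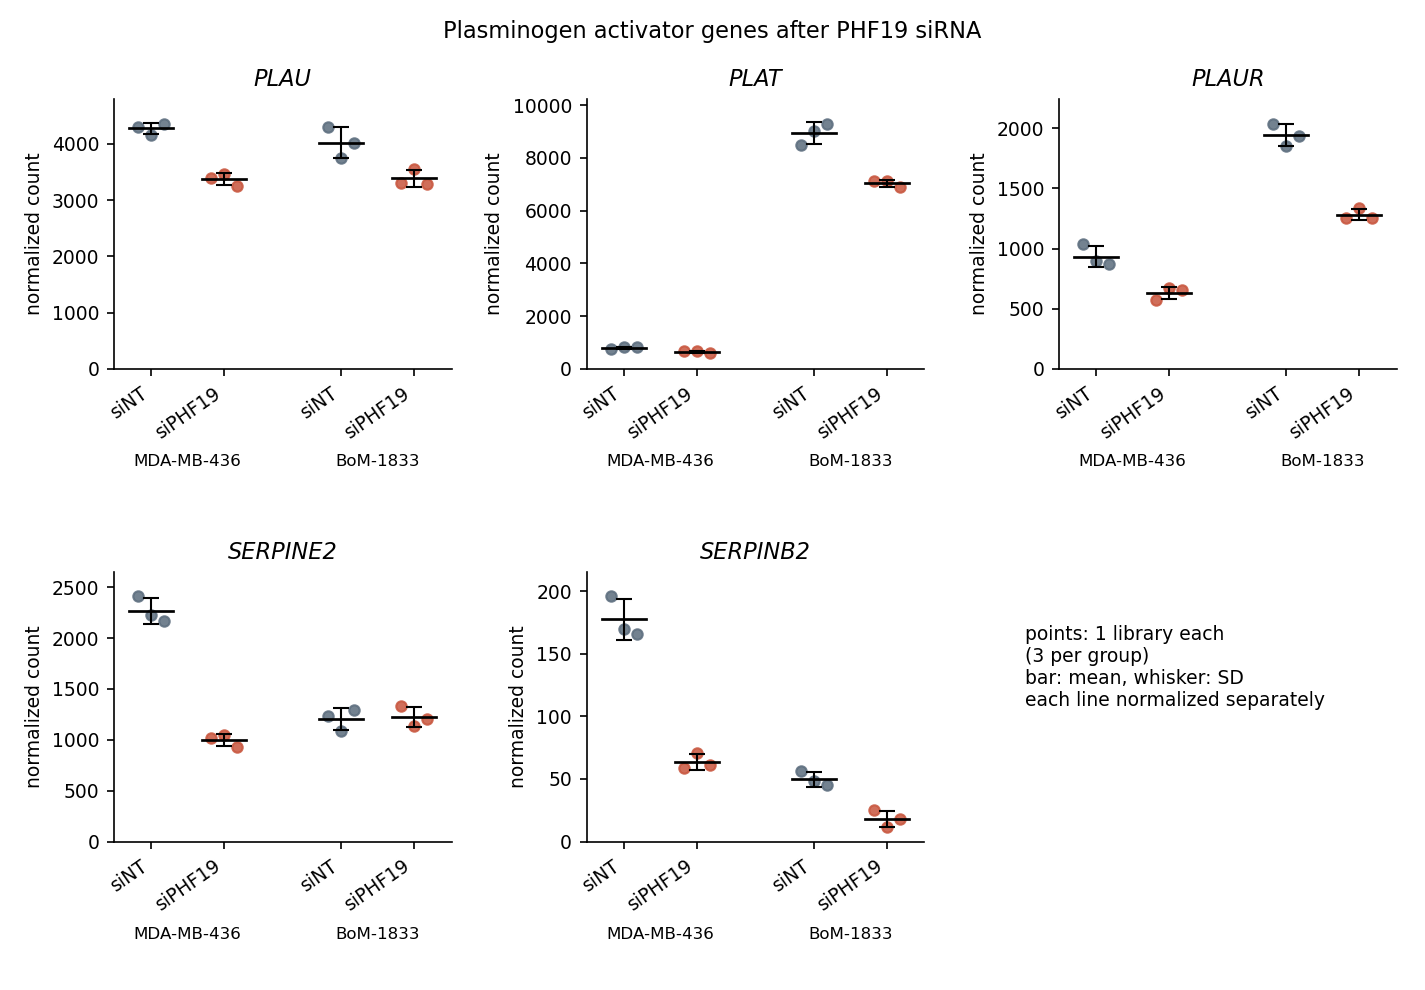
Normalized counts of PLAU, PLAT, PLAUR, SERPINE2 and SERPINB2 (y axis, from 0) in the 12 libraries, by line and siRNA; points are libraries, bars the mean of 3 and whiskers the SD. The siPHF19 libraries lie below all siNT libraries of their line in every panel except SERPINE2 in BoM-1833, where the groups overlap.

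PLAU encodes urokinase (ENSG00000122861.15; GRCh38 chromosome 10, 73909177 to 73917497, plus strand). In MDA-MB-436 cells the siNT libraries held 4301, 4163 and 4360 normalized counts (replicates 1 to 3) and the siPHF19 libraries 3386, 3470 and 3255. In BoM-1833 cells they held 4298, 3745 and 4023 with siNT and 3309, 3557 and 3291 with siPHF19. The groups did not overlap in either line, and the gap was narrower in BoM-1833 cells, where siNT replicate 2 was the lowest control and siPHF19 replicate 2 the highest treated library. In the authors' deposited table the log2 fold change was -0.34 (SE 0.06, DESeq2 adjusted p 1.59e-06) in MDA-MB-436 cells and -0.25 (SE 0.07, DESeq2 adjusted p 0.00468) in BoM-1833 cells, or 78.9% and 84.2% of the control. The BoM-1833 call was lost when siPHF19 replicate 1 or 3 was left out (DESeq2 adjusted p 0.0679 and 0.0889). C10orf55, which the annotation places over PLAU on the opposite strand, had at most 63.3 normalized counts in any library, and whether counting used strand is not given in the sources used here.

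PLAT encodes tissue plasminogen activator (ENSG00000104368.17; GRCh38 chromosome 8, 42175233 to 42207724, minus strand). Its normalized counts in MDA-MB-436 cells were 747, 818 and 830 with siNT and 673, 666 and 601 with siPHF19. In BoM-1833 cells they were 8478, 9002 and 9300 with siNT and 7110, 7129 and 6877 with siPHF19. All treated libraries were below all controls in both lines, with a wide gap in BoM-1833 cells and a small one in MDA-MB-436 cells. The deposited log2 fold changes (the authors' deposited table) were -0.30 (SE 0.10, DESeq2 adjusted p 0.0110) in MDA-MB-436 cells and -0.34 (SE 0.06, DESeq2 adjusted p 1.48e-07) in BoM-1833 cells, leaving 81.0% and 78.9% of the control level. In MDA-MB-436 cells this was the only one of the 5 calls that leaving out a library ended: it was lost without siNT replicate 2 (DESeq2 adjusted p 0.139) and without siPHF19 replicate 1, 2 or 3 (0.0593, 0.0731 and 0.153).

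PLAUR encodes the urokinase receptor, a glycolipid-anchored protein that also binds vitronectin and signals through integrins (ENSG00000011422.11; GRCh38 chromosome 19, 43646095 to 43670547, minus strand). Normalized counts in MDA-MB-436 cells were 1036, 898 and 868 with siNT and 576, 670 and 654 with siPHF19. In BoM-1833 cells they were 2038, 1854 and 1933 with siNT and 1253, 1339 and 1255 with siPHF19. Every siPHF19 library was well below every control of its line. The receptor fell to 67.9% of the control in MDA-MB-436 cells and to 66.0% in BoM-1833 cells (log2 fold change -0.56, SE 0.11, and -0.60, SE 0.07, in the authors' deposited table; DESeq2 adjusted p 3.28e-06 and 6.49e-14). Both calls held in all 17 fits of each line, over which the value ran from -0.61 to -0.48 in MDA-MB-436 cells and from -0.63 to -0.56 in BoM-1833 cells. Per library, the receptor's RPKM over that of PLAU was 0.579, 0.604 and 0.587 in BoM-1833 controls and 0.462, 0.460 and 0.466 after siPHF19, without overlap. In MDA-MB-436 cells this ratio was 0.294, 0.263 and 0.244 with siNT and 0.208, 0.236 and 0.245 with siPHF19, and the groups overlapped.

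SERPINE2 encodes protease nexin-1, a secreted serpin that binds heparan sulfate at the cell surface (ENSG00000135919.12; GRCh38 chromosome 2, 223975112 to 224039319, minus strand). In MDA-MB-436 cells its normalized counts were 2413, 2224 and 2165 with siNT and 1013, 1051 and 928 with siPHF19. In BoM-1833 cells they were 1234, 1086 and 1291 with siNT and 1332, 1137 and 1205 with siPHF19. The treated MDA-MB-436 libraries lay far below every control, while in BoM-1833 cells the 2 groups overlapped. The authors' deposited table gives -1.18 (SE 0.08, DESeq2 adjusted p 4.09e-42) for MDA-MB-436 cells, which leaves 44.0% of the control, and 0.03 (SE 0.09, DESeq2 adjusted p 0.923) for BoM-1833 cells. The difference between the lines was -1.21 on the log2 scale (95% interval -1.45 to -0.97; z test on the deposited fold changes, Benjamini-Hochberg adjusted p 2.06e-19). A difference between the lines was called for 4.89% of the genes tested in both.

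SERPINB2, also known as plasminogen activator inhibitor type 2, encodes a serpin that is found mostly inside cells (ENSG00000197632.8; GRCh38 chromosome 18, 63871692 to 63903890, plus strand). It was the least abundant of the genes, with 136 to 219 reads per siNT library and 54 to 85 per siPHF19 library in MDA-MB-436 cells, and 47 to 71 and 10 to 25 in BoM-1833 cells. Its normalized counts were 196, 170 and 166 with siNT and 58.9, 70.4 and 61.3 with siPHF19 in MDA-MB-436 cells, and 56.4, 48.0 and 44.8 with siNT and 24.8, 11.8 and 18 with siPHF19 in BoM-1833 cells. The groups did not overlap in either line. The authors' deposited table lists log2 fold changes of -1.48 (SE 0.20, DESeq2 adjusted p 3.09e-12) and -1.44 (SE 0.38, DESeq2 adjusted p 0.00287), which leave 36% and 36.9% of the control. The BoM-1833 call was lost without siPHF19 replicate 2, its lowest library (-1.21, DESeq2 adjusted p 0.0663), and DESeq2 gave no adjusted p without siNT replicate 1 or 3. SERPINB10 is annotated over part of the gene on the same strand, so reads of shared exons could have been assigned to either gene.

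For the other 4 genes the deposited fold changes of the 2 lines lay close together. The log2 difference, MDA-MB-436 minus BoM-1833, was -0.09 for PLAU (95% interval -0.28 to 0.09; z test, adjusted p 0.694). It was 0.04 for PLAT (-0.18 to 0.26, z test, adjusted p 0.914) and 0.04 for PLAUR (-0.21 to 0.29, z test, adjusted p 0.923). For SERPINB2 it was -0.04, with an interval of -0.88 to 0.80 (z test, adjusted p 0.981). A difference of up to about 0.3 for the first 3 genes, and of up to about 0.9 for SERPINB2, therefore lies within these intervals.

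Levels per length put the genes in a different order in the 2 lines. The tables were normalized separately, so levels of the lines stand side by side, without a test. In MDA-MB-436 controls PLAU stood highest, at 84.8 ± 2.29 RPKM (SD, n = 3), followed by SERPINE2 at 38.3 ± 1.59, PLAUR at 22.6 ± 1.76, PLAT at 15.4 ± 1.14 and SERPINB2 at 4.35 ± 0.328. No 2 neighbours in this order overlapped over libraries. After siPHF19 the MDA-MB-436 levels were 67.9 ± 2.33 for PLAU, 17.1 ± 1.12 for SERPINE2, 15.6 ± 1.21 for PLAUR, 12.7 ± 0.781 for PLAT and 1.58 ± 0.155 for SERPINB2 (SD, n = 3). SERPINE2 and PLAUR then overlapped, and with the length of the longest transcript in place of all exons their order turned (21.0 and 21.3 RPKM).

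In BoM-1833 controls PLAT was the most abundant, at 193 ± 9.64 RPKM (SD, n = 3), followed by PLAU at 89.4 ± 5.26, PLAUR at 52.7 ± 2.04, SERPINE2 at 22.8 ± 1.78 and SERPINB2 at 1.37 ± 0.157. The siPHF19 libraries kept that order of means, at 154 ± 2.65, 76.2 ± 2.98, 35.2 ± 1.18, 23.5 ± 2.02 and 0.508 ± 0.184 RPKM (SD, n = 3). No neighbours in these orders overlapped over libraries. The ratio of PLAT to PLAU was 0.182 ± 0.0116 in MDA-MB-436 controls and 2.17 ± 0.22 in BoM-1833 controls (SD, n = 3). After siPHF19 it was 0.187 ± 0.00642 and 2.02 ± 0.0713 (SD, n = 3), and in both lines the treated and control ranges overlapped. The ratio of SERPINE2 to PLAU went from 0.453 ± 0.0282 to 0.252 ± 0.00805 in MDA-MB-436 cells, without overlap, and from 0.256 ± 0.0161 to 0.31 ± 0.0358 in BoM-1833 cells (SD, n = 3), where the ranges met at 0.274 and 0.273.

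**Figure D2:**
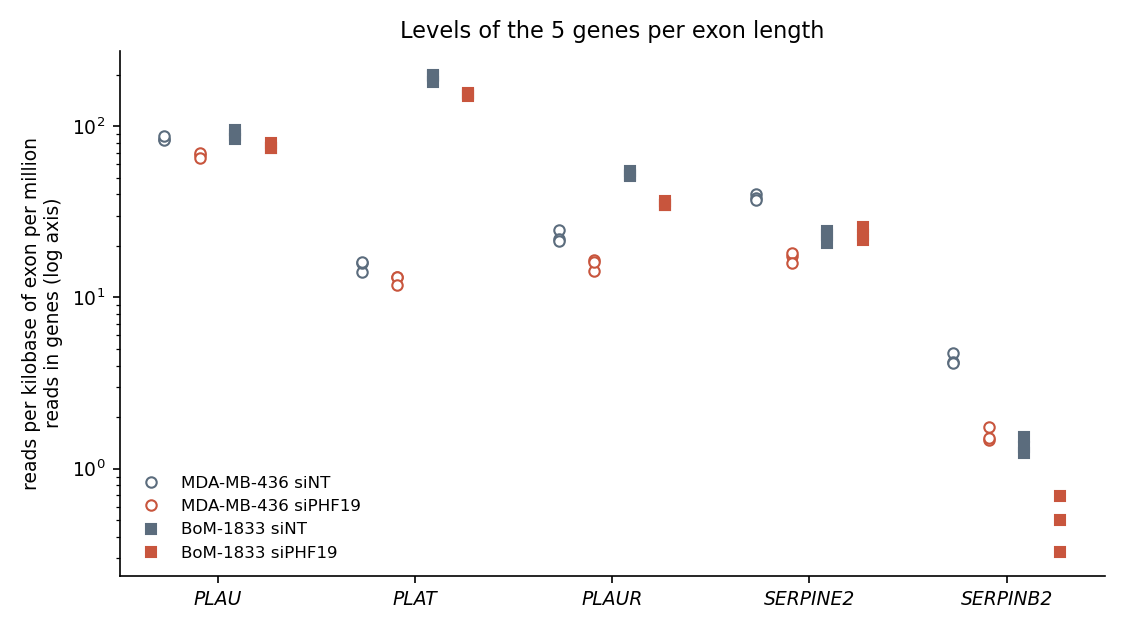
RPKM, reads scaled to exon length and library size (log axis), for the 5 genes in each of the 12 libraries; circles are MDA-MB-436 and squares BoM-1833, grey for siNT and red for siPHF19. PLAT lies between 11.8 and 16.2 RPKM in MDA-MB-436 and at 151 or more in BoM-1833, whereas PLAU lies between 65.4 and 94.8 in every library.

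The AP-1 family binds the letters TGANTCA and is known to act on PLAU and PLAUR, and a TATA box, TATAAA, marks some promoters. Both were searched on both strands of the windows from 250 bases before to 50 after the transcript starts in the RefSeq promoter table (GRCh38.p14), where TGANTCA occurs in 7.71% and TATAAA in 11.5% of 35116 windows, and the 2 motifs share no overlapping match in the windows shown. Of the genes whose entries were used, PLAUR and SERPINB2 held a TGANTCA match, as did ANXA2, a plasminogen docking gene described below. No entry was used for PLAT, so whether its windows hold these letters was not tested. The PLAU (2 entries), SERPINE2 (2 entries) and S100A10 windows held neither, which says only that these letters are not in those windows. The 250 bases before the start are shown for the 3 genes with a match, 5′ to 3′ on the gene's strand, with matches in capitals; a match is a description and not a binding site.
PLAUR (chr19:43670170-43670419, minus strand): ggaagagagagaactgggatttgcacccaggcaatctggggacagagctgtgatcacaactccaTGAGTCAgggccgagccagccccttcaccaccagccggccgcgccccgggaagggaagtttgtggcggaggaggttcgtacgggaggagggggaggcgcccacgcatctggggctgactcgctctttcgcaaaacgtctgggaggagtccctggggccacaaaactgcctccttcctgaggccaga
SERPINB2 (chr18:63887455-63887704, plus strand): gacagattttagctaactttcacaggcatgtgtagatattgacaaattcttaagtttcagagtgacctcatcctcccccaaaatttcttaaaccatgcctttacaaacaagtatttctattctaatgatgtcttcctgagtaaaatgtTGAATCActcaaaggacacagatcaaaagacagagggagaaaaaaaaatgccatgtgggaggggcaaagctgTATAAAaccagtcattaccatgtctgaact
ANXA2 (chr15:60397987-60398236, minus strand): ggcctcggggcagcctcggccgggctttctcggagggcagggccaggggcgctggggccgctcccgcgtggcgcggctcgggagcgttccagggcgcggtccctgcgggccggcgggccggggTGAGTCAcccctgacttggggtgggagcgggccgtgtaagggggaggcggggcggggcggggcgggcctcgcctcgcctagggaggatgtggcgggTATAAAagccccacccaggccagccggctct
The AP-1 letters begin 186 bases before the start in PLAUR, 102 in SERPINB2 and 127 in ANXA2. SERPINB2 and ANXA2 also have TATAAA, 30 and 31 bases before the start. The letters CCGGAA, searched for the ETS family, are in 17.2% of all windows and in none of these. The shorter ETS letters GGAA were not searched, and the PLAUR sequence shown holds them. The absence therefore covers only CCGGAA, and whether other ETS letters are in these windows was not tested.

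A list of 69 genes places these genes in the wider plasminogen system, from plasmin and its inhibitors to docking proteins, clearance receptors, receptor partners, plasmin substrates and transcription factors. It was drawn up with earlier results of these data known. Without the 5 genes above, 46 genes were tested in MDA-MB-436 cells, of which 14 were lower and 5 higher (41.3% called, against the 22.1% of all genes), with a median log2 fold change of -0.04 against -0.002 for all tested genes. In BoM-1833 cells, 49 were tested, 8 lower and 8 higher (32.7% called, against 10.9%), with a median of 0.02 against -0.004. Of 44 tested in both lines, 9 genes were called in both, 6 of them lower in both and 3 higher in both. Among all 12290 genes tested in both lines, 3.12% were lower in both, and the share higher in both was not counted. The mRNA of plasminogen itself (PLG) was next to absent, with a mean of at most 0.352 normalized counts in any group, and PZP, HPN, TMPRSS4, HGF and FPR2 were at 0 in every library. Of the 26 list genes called in a line, the 24 with the largest Wald statistics are described below; the others were VLDLR and MRC2.

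**Figure D3:**
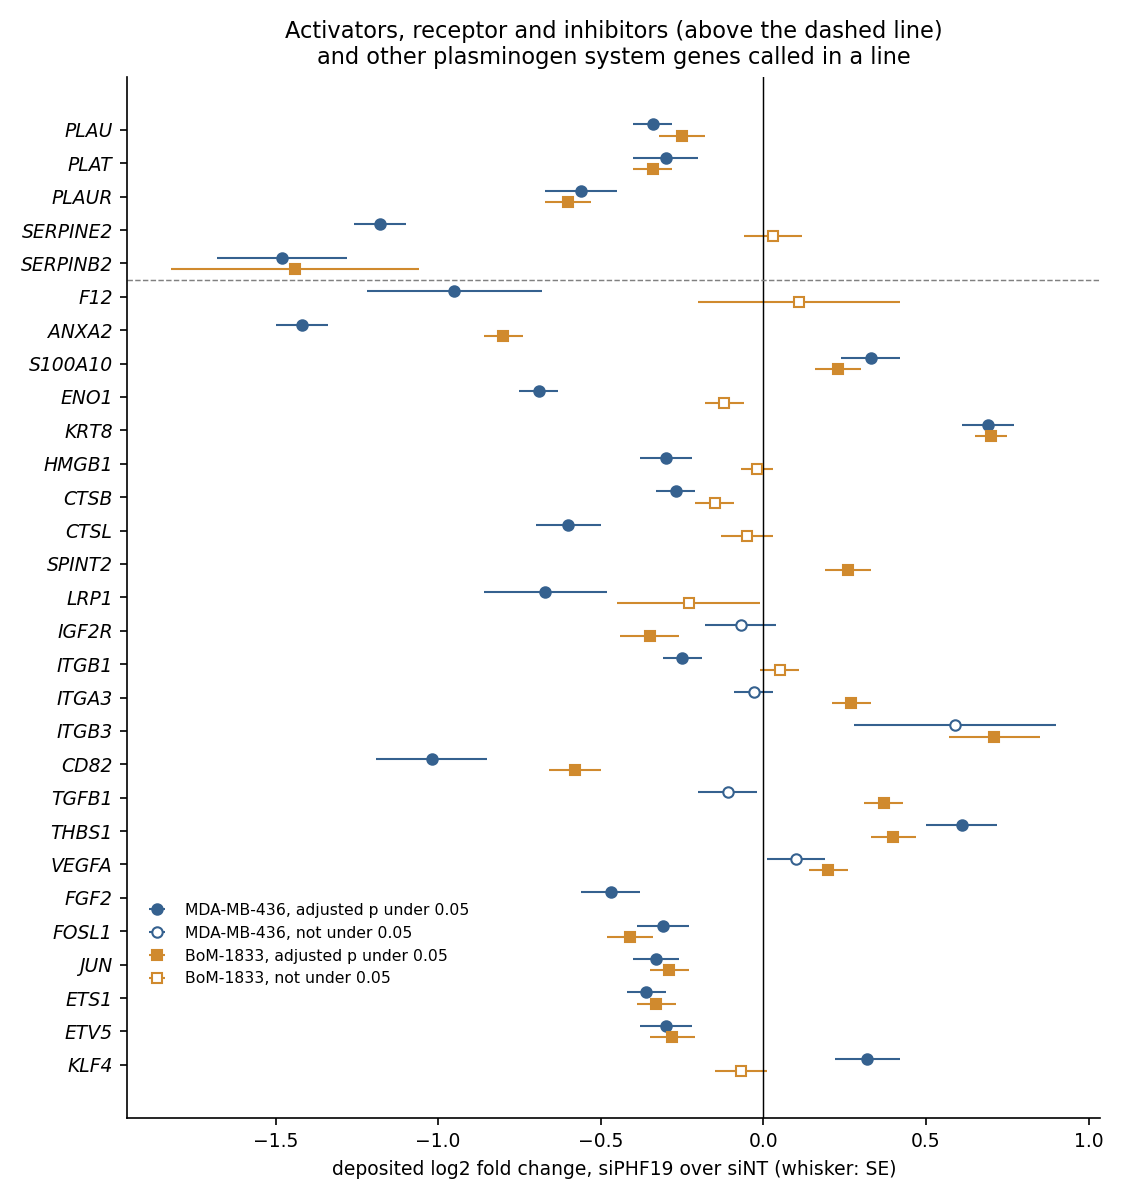
Log2 fold change, siPHF19 over siNT (x axis), from the authors' deposited tables for the 5 genes (above the dashed line) and 24 other plasminogen system genes; blue circles are MDA-MB-436, orange squares BoM-1833, filled where the adjusted p is under 0.05, and whiskers are the SE. PLAU, PLAT, PLAUR and SERPINB2 are filled and left of 0 in both lines, while SERPINE2 is at -1.18 for MDA-MB-436 and at 0.03 for BoM-1833.

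Docking proteins hold plasminogen at the cell surface, close to receptor-bound urokinase. Of 6 tested, 3 fell and 2 rose in MDA-MB-436 cells, and 1 fell and 2 rose in BoM-1833 cells. That is 83.3% and 50% called, against 22.1% and 10.9% of all tested genes. ANXA2 (GRCh38 chromosome 15, 60347134 to 60402883, minus strand), the annexin that forms a heterotetramer with S100A10, fell the most. Its normalized counts were 28100, 24415 and 23382 with siNT and 9302, 9924 and 9147 with siPHF19 in MDA-MB-436 cells, and 30261, 27523 and 26542 with siNT and 15735, 16495 and 16274 with siPHF19 in BoM-1833 cells. The groups were far apart in both lines. ANXA2 fell to 37.4% and 57.5% of the control (log2 fold change -1.42, SE 0.08, and -0.80, SE 0.06, in the authors' deposited table; DESeq2 adjusted p 2.35e-64 and 6.72e-37).

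S100A10 (GRCh38 chromosome 1, 151982915 to 151994390, minus strand), the subunit whose tail binds plasminogen, moved the other way. In MDA-MB-436 cells it had 2800, 2364 and 2259 normalized counts with siNT and 2996, 3234 and 3120 with siPHF19, and in BoM-1833 cells 4293, 3883 and 3795 with siNT and 4426, 4805 and 4844 with siPHF19. The groups did not overlap, though siNT replicate 1 came close to the treated libraries in both lines. The authors' deposited table gives 0.33 (SE 0.09, DESeq2 adjusted p 0.00234) and 0.23 (SE 0.07, DESeq2 adjusted p 0.00864). The call was lost in 2 of 17 fits in MDA-MB-436 cells, without siNT replicate 2 or siPHF19 replicate 2 (up to an adjusted p of 0.0529), and in 5 of 17 in BoM-1833 cells, among them those without siNT replicate 2 or 3 or siPHF19 replicate 2 or 3 (up to 0.136). The RPKM of S100A10 over that of ANXA2 was 0.146 ± 0.0023 in MDA-MB-436 controls and 0.494 ± 0.0152 after siPHF19, and 0.213 ± 0.00112 and 0.435 ± 0.0129 in BoM-1833 cells (SD, n = 3). ANXA2 has 3 annotated pseudogenes, and reads of such copies may be counted with it.

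**Figure D4:**
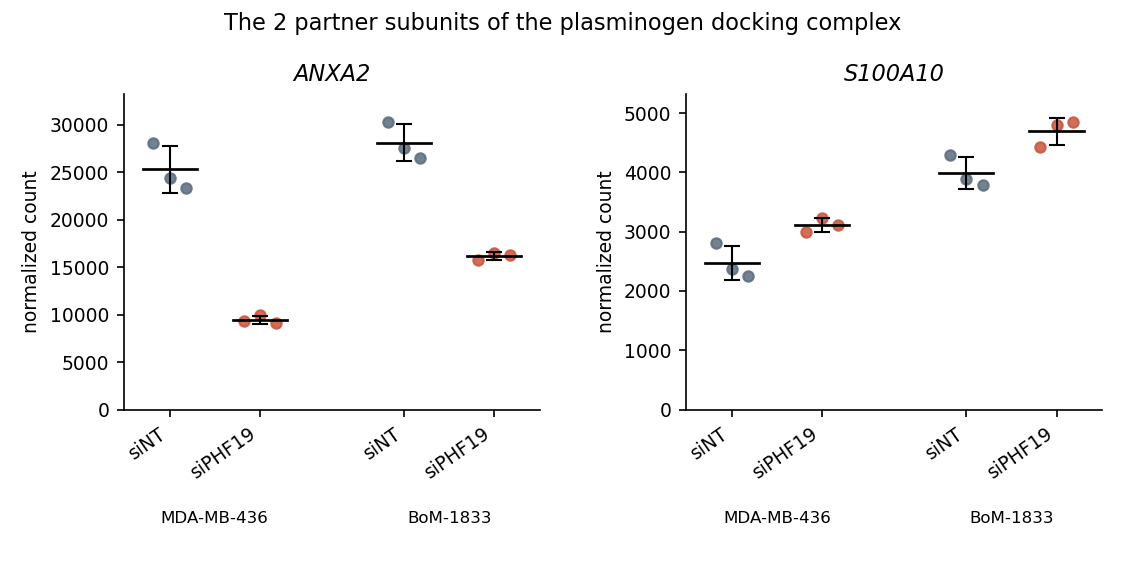
Normalized counts (y axes, from 0) of the partner subunits ANXA2 and S100A10 in the 12 libraries by line and siRNA; points are libraries, bars the mean of 3 and whiskers the SD. ANXA2 is at 23382 or more in every control and at 16495 or less in every treated library, while S100A10 is higher in each treated library than in any control of its line.

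Among the other docking genes, KRT8, a keratin that binds plasminogen when exposed at the surface, rose in both lines, with log2 fold changes of 0.69 (SE 0.08) and 0.70 (SE 0.05) in the authors' deposited table (DESeq2 adjusted p 3.17e-14 and 2.94e-36). ENO1, a glycolytic enzyme that also docks plasminogen, fell in MDA-MB-436 cells from 38210, 35899 and 35489 to 22355, 23657 and 22073 normalized counts (-0.69, SE 0.06, DESeq2 adjusted p 3.04e-26 in the authors' deposited table). In BoM-1833 cells ENO1 was at -0.12 (SE 0.06, DESeq2 adjusted p 0.175) there. HMGB1, a chromatin protein that can be secreted, fell in MDA-MB-436 cells (-0.30, SE 0.08) and was at -0.02 (SE 0.05) in BoM-1833 cells, by the authors' deposited table (DESeq2 adjusted p 0.00156 and 0.891). KRT8 and HMGB1 have 50 and 48 annotated pseudogenes, so their counts are less certain than those of the 5 genes.

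Of the proteases that activate pro-urokinase, and the inhibitors of those proteases, 3 were tested in MDA-MB-436 cells and 2 were lower, and 5 were tested in BoM-1833 cells and 1 was higher. The shares called were 66.7% and 20%, against 22.1% and 10.9% of all tested genes. The cathepsins CTSL and CTSB, lysosomal proteases that can be secreted, had log2 fold changes of -0.60 (SE 0.10) and -0.27 (SE 0.06) in MDA-MB-436 cells, by the authors' deposited table (DESeq2 adjusted p 6.77e-08 and 1.79e-05). CTSL went from 8707, 6949 and 6610 normalized counts to 4725, 5004 and 4944 there. In BoM-1833 cells they were at -0.05 (SE 0.08, DESeq2 adjusted p 0.839) and -0.15 (SE 0.06, DESeq2 adjusted p 0.114) in the authors' deposited table. CTSB gained a call in BoM-1833 cells with both lines in 1 fit and with an exon length offset (DESeq2 adjusted p 0.0222 and 0.0294). SPINT2, an inhibitor of membrane serine proteases, had at most 6.55 normalized counts in MDA-MB-436 cells, and in BoM-1833 cells rose from 6529, 5673 and 5922 to 7199, 7625 and 6887 (0.26, SE 0.07, DESeq2 adjusted p 0.00214 in the authors' deposited table). That call was lost without siNT replicate 2 or siPHF19 replicate 2 (DESeq2 adjusted p 0.0561 and 0.0865). Of plasmin, its inhibitors and further plasminogen activators, 1 of 7 was tested in MDA-MB-436 cells and 3 in BoM-1833 cells, where none was called. The shares called were 100% and 0%, against 22.1% and 10.9% of all tested genes, and shares of so few genes say little. The gene tested in MDA-MB-436 cells was F12, the contact protease factor XII that can also activate plasminogen. It fell in MDA-MB-436 cells (-0.95, SE 0.27, DESeq2 adjusted p 0.00346) and was at 0.11 (SE 0.31, DESeq2 adjusted p 0.907) in BoM-1833 cells, by the authors' deposited table. It had only 34 to 152 reads per MDA-MB-436 library, and its call there was lost without siNT replicate 2 or siPHF19 replicate 1 (DESeq2 adjusted p 0.109 and 0.0671).

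Clearance receptors take up urokinase bound to its inhibitors together with PLAUR. Of 7 tested in MDA-MB-436 cells, 1 was lower and 1 higher, and of 6 tested in BoM-1833 cells, 2 were lower. These are 28.6% and 33.3% called, against 22.1% and 10.9% of all tested genes. LRP1, the main endocytic receptor of such complexes, fell in MDA-MB-436 cells from 473, 635 and 834 to 383, 490 and 344 normalized counts. The lowest control, siNT replicate 1, lay below the highest treated library, so these groups overlapped (-0.67, SE 0.19, DESeq2 adjusted p 0.00296 in the authors' deposited table). In BoM-1833 cells LRP1 was at -0.23 (SE 0.22, DESeq2 adjusted p 0.633) in the authors' deposited table. IGF2R, which binds PLAUR and latent TGF-beta, was lower in BoM-1833 cells (-0.35, SE 0.09, DESeq2 adjusted p 0.00182) and at -0.07 (SE 0.11, DESeq2 adjusted p 0.677) in MDA-MB-436 cells, by the authors' deposited table. The IGF2R call in BoM-1833 cells was lost without siPHF19 replicate 2 (DESeq2 adjusted p 0.0558), and MDA-MB-436 cells gained it without siNT replicate 1 (-0.19, adjusted p 0.00939). LRP1 and IGF2R are long (16874 and 14044 bp of exon), and in both lines each was lowest among controls in siNT replicate 1, the library in which long transcripts stood lowest. With an exon length offset in DESeq2 both genes kept their calls, and the difference of LRP1 between lines, -0.45 as deposited (z test, adjusted p 0.468), was -0.56 and passed the test (adjusted p 0.0256).

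Of the receptor's partners, 9 were tested in each line. In MDA-MB-436 cells 2 fell and none rose, and in BoM-1833 cells 1 fell and 2 rose. The share called in MDA-MB-436 cells, 22.2%, was near the 22.1% of all tested genes. In BoM-1833 cells it was 33.3%, against 10.9%. CD82, a tetraspanin known as a suppressor of metastasis, fell in both lines, from 278, 230 and 237 to 108, 146 and 111 normalized counts in MDA-MB-436 cells and from 1592, 1524 and 1683 to 1100, 1076 and 1044 in BoM-1833 cells. Neither pair of groups overlapped (-1.02, SE 0.17, and -0.58, SE 0.08, in the authors' deposited table; DESeq2 adjusted p 1.50e-07 and 6.08e-12). ITGB1, the integrin beta chain that pairs with PLAUR, fell in MDA-MB-436 cells (-0.25, SE 0.06, DESeq2 adjusted p 0.000554) and was at 0.05 (SE 0.06, DESeq2 adjusted p 0.688) in BoM-1833 cells, by the authors' deposited table. ITGA3, an alpha chain that binds PLAUR, rose in BoM-1833 cells (0.27, SE 0.06, DESeq2 adjusted p 6.87e-05) and was at -0.03 (SE 0.06, DESeq2 adjusted p 0.779) in MDA-MB-436 cells (the authors' deposited table). ITGB3, the beta chain of the vitronectin receptor, rose in BoM-1833 cells from 201, 228 and 284 to 418, 390 and 356 normalized counts (0.71, SE 0.14, DESeq2 adjusted p 2.33e-05 in the authors' deposited table). In MDA-MB-436 cells, where it had 25.1 to 53.0 normalized counts, ITGB3 was at 0.59 (SE 0.31, DESeq2 adjusted p 0.167) in the authors' deposited table. With both lines in 1 fit ITGB3 gained a call in MDA-MB-436 cells (0.59, DESeq2 adjusted p 0.0427).

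Among plasmin substrates and growth factors released by plasmin, 7 were tested in MDA-MB-436 cells, with 1 higher and 1 lower, and 6 in BoM-1833 cells, with 3 higher. That makes 28.6% and 50% called, against 22.1% and 10.9% of all tested genes. THBS1, the matrix protein thrombospondin that activates latent TGF-beta, rose in both lines, from 1876, 2259 and 2539 to 3606, 3224 and 3360 normalized counts in MDA-MB-436 cells and from 5630, 6644 and 6228 to 8009, 8118 and 8334 in BoM-1833 cells. The groups did not overlap (0.61, SE 0.11, and 0.40, SE 0.07, in the authors' deposited table; DESeq2 adjusted p 2.38e-07 and 8.08e-08). TGFB1, which plasmin can release from its latent complex, rose in BoM-1833 cells (0.37, SE 0.06, DESeq2 adjusted p 2.24e-07) and was at -0.11 (SE 0.09, DESeq2 adjusted p 0.438) in MDA-MB-436 cells, by the authors' deposited table. VEGFA, the endothelial growth factor, was at 0.20 (SE 0.06, DESeq2 adjusted p 0.0104) in BoM-1833 cells and 0.10 (SE 0.09, DESeq2 adjusted p 0.459) in MDA-MB-436 cells, by the authors' deposited table. The BoM-1833 call of VEGFA was lost in 4 of 17 fits, among them those without siPHF19 replicate 1, 2 or 3 (up to an adjusted p of 0.164 in DESeq2). FGF2, a matrix-bound growth factor, fell in MDA-MB-436 cells from 3483, 3908 and 4220 to 2897, 2876 and 2614 normalized counts (-0.47, SE 0.09, DESeq2 adjusted p 1.96e-06 in the authors' deposited table), and had at most 3 reads in any BoM-1833 library.

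Of the 13 transcription factors of the AP-1, ETS and NF-kB families and KLF4 in the list, 4 fell and 1 rose in MDA-MB-436 cells, and 4 fell and none rose in BoM-1833 cells. The shares called were 38.5% and 30.8%, against 22.1% and 10.9% of all tested genes. The 4 that fell in both lines were FOSL1, JUN, ETS1 and ETV5. FOSL1 and JUN, which pair in AP-1, were at -0.31 (SE 0.08) and -0.33 (SE 0.07) in MDA-MB-436 cells and -0.41 (SE 0.07) and -0.29 (SE 0.06) in BoM-1833 cells, by the authors' deposited table, with DESeq2 adjusted p of 0.000654, 1.12e-05, 4.98e-08 and 4.34e-05. FOSL1 went from 4768, 5032 and 5610 to 4089, 4238 and 4113 normalized counts in MDA-MB-436 cells and from 5527, 5634 and 4953 to 3904, 3958 and 4233 in BoM-1833 cells, and JUN from 4412, 4151 and 4079 to 3279, 3373 and 3432 and from 3320, 3210 and 3202 to 2612, 2654 and 2691. None of these 4 pairs of groups overlapped. ETS1, a factor of invasive cells, was at -0.36 (SE 0.06) and -0.33 (SE 0.06), and ETV5 of the PEA3 group at -0.30 (SE 0.08) and -0.28 (SE 0.07) in the authors' deposited table (DESeq2 adjusted p 4.26e-08, 2.80e-07, 0.00304 and 0.00252). The ETV5 call was lost in 4 of 17 fits in MDA-MB-436 cells, among them those without siNT replicate 2 or siPHF19 replicate 2 or 3 (up to an adjusted p of 0.0853 in DESeq2), and in 2 of 17 in BoM-1833 cells, 1 of them without siPHF19 replicate 1 (0.0723). KLF4 rose in MDA-MB-436 cells (0.32, SE 0.10, DESeq2 adjusted p 0.00883) and was at -0.07 (SE 0.08, DESeq2 adjusted p 0.704) in BoM-1833 cells, by the authors' deposited table. Its call was lost without siNT replicate 2 or siPHF19 replicate 1 or 2 (up to an adjusted p of 0.114 in DESeq2).

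The genes whose libraries ran most like each of the 5 were sought by Pearson's r of log2(normalized count + 1), centred on the mean of each line, over the 12 libraries and 9821 genes with a mean of at least 100 in both lines. SERPINB2 was below that minimum. All r below share their siNT and siPHF19 libraries and are descriptions, with no test. The shift from siNT to siPHF19 stays in the values, so genes that fell in the same lines tend to have a high r. Closest to PLAU were FKBP1A (0.973), ATRAID (0.968) and ETF1 (0.966). Closest to PLAT were LRRC57 (0.984), DENND5B (0.983) and OTUD4 (0.977), and among those closest to PLAUR were JUN (0.986) and EIF1 (0.982). Among those most like SERPINE2 were PMEPA1 (0.984) and RAB31 (0.981), which the authors' deposited table lists at log2 fold changes of -1.59 and -0.93 in MDA-MB-436 cells and -0.09 and -0.06 in BoM-1833 cells. Among the genes themselves r was 0.926 between PLAU and PLAUR, 0.867 between PLAU and PLAT and 0.847 between PLAT and PLAUR, and SERPINE2 had lower values, from 0.602 with PLAT to 0.756 with PLAU.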

How the data were processed

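mRNA libraries (stranded Illumina mRNA prep, per the labels) of 12 samples in 4 groups were used. The submitters' processing notes list STAR, RSEM 1.3.1, DESeq2 1.46.0 and the build hg38, without role or order; the annotation and the use of strand are not given in the sources used here. Per the file headers, the deposited tables hold, for each line, a normalized count (signal) per library, the log2 fold change with its SE, the Wald statistic (a score) and the p-value with its adjusted value. A gene is called at an adjusted p under 0.05. Normalized counts are whole numbers divided by 1 factor per library (100% of values within 0.01 read). The recovered whole numbers, which may be rounded RSEM estimates, were used for alternatives with DESeq2 1.42.0, edgeR 4.0.16 and limma 3.58.1, and for RPKM over GENCODE 29 exon lengths. Fold changes of the lines were compared by a z test, adjusted over all 12290 genes (Benjamini-Hochberg). Scripts were tested on simulated data. Replicates differed beyond sampling noise (chi-square per degree of freedom 2.29 to 24.07 over 12 pairs), so none was merged. The 5 genes, the list of 69 genes and the motifs were chosen with earlier results of these data known. List genes called in a line are named, up to 24 by the larger absolute Wald statistic, and for each gene with a mean of at least 100 in both lines the 3 most alike genes, of which some are not reported here.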

Additional observations from a re-analysis of the deposited data

Results flagged for a closer look

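The responses of the lines differed for 8 list genes: 1 of the 5 genes and 7 of the 44 others tested in both lines. The calls came from a z test on the deposited log2 fold changes (MDA-MB-436 minus BoM-1833), adjusted over all genes tested in both lines. Of those 12290 genes, 601 (4.89%) were called. SERPINE2 had a difference of -1.21 (adjusted p 2.06e-19), with a fall in MDA-MB-436 alone, and kept this call in every alternative run. ANXA2 had -0.62 (adjusted p 2.42e-07), falling in both lines and more in MDA-MB-436. ENO1 and CTSL had -0.57 (adjusted p 3.29e-09) and -0.56 (adjusted p 0.00124), both called in MDA-MB-436 alone as deposited. With an exon length offset ENO1 was called lower in BoM-1833 too (-0.14, DESeq2 adjusted p 0.0114). TGFB1 had -0.48 (adjusted p 0.00118) and ITGA3 -0.30 (adjusted p 0.0109), both called higher in BoM-1833 alone. ITGB1 had -0.30 (adjusted p 0.00993) and KLF4 0.39 (adjusted p 0.0466), both called in MDA-MB-436 alone. Leaving out 1 library ended 3 of these calls. That of ITGA3 was lost without MDA-MB-436 siNT replicate 2 or any siPHF19 replicate, and without BoM-1833 siNT or siPHF19 replicate 2 (adjusted p up to 0.143). That of ITGB1 was lost without the same MDA-MB-436 libraries and BoM-1833 siPHF19 replicate 2 (up to 0.125), and that of KLF4 without any library except MDA-MB-436 siNT replicate 3 and BoM-1833 siNT replicate 1 (up to 0.23). The KLF4 call was also lost with an edgeR interaction (adjusted p 0.0571). The cause of these differences was not tested.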

How the results depend on the processing

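No alternative reversed the direction of a called value. Over 83 alternatives of the 5 genes' differences between lines every call stayed as it was. Among alternative fold changes of these genes and PHF19, 180 kept their side of the threshold and 10 lost their call. DESeq2 with the replicate number as a block called 1610 genes in MDA-MB-436 cells and 610 in BoM-1833 cells, and 2 of the 5 genes in BoM-1833 cells. PLAT in MDA-MB-436 cells stood at -0.30 (adjusted p 0.129) under the block, and PLAU and SERPINB2 in BoM-1833 cells at -0.25 (0.0991) and -1.48 (0.0568). The block also ended the calls of a difference between lines for TGFB1 (z test, adjusted p 0.0599), ITGA3 (0.255), ITGB1 (0.237) and KLF4 (0.329). The labels tie the numbers to no shared batch, and same-numbered libraries had r of -0.233, 0.039 and -0.269 in MDA-MB-436 cells and -0.307, -0.117 and -0.199 in BoM-1833 cells, and no library ran closest to its own number except siNT and siPHF19 replicate 2 of MDA-MB-436. With a minimum absolute log2 fold change of 0.5 the calls were 1135 and 392 genes, 3 and 2 of the 5 genes, and 11 and 6 list genes. Without 1 library, 1767 to 3801 genes were called in MDA-MB-436 cells (4 to 5 of the 5 genes) and 746 to 2046 in BoM-1833 cells (3 to 4); the count of genes fell by over 1.5 times without siNT replicate 2 or any siPHF19 replicate in either line. Over these fits PLAT in MDA-MB-436 cells ran from -0.35 to -0.26, PLAU in BoM-1833 cells from -0.30 to -0.20 and SERPINB2 in BoM-1833 cells from -1.74 to -1.21. The fits leave 1 group with 2 libraries; the cause of lost calls beyond that was not tested. An exon length offset, chosen after seeing the data, called 3495 and 1914 genes, and 5 and 4 of the 5 genes. Depth limits SERPINB2 in BoM-1833 cells most, at 10 to 25 reads per siPHF19 library.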
